A study of Notophthalmus viridescens with 18 samples.

Results

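The transcriptome of newt myotubes kept for 3 days in medium conditioned by senescent cells (SEN CM) was compared with that of myotubes kept for the same 3 days in fresh medium. The comparison was chosen by the sample titles and takes 6 of the 18 libraries of the series, 3 libraries in each of the 2 groups, and 23107 of 27395 transcripts passed the filter on low counts. All libraries came from A1 cells, a wild-type myogenic line derived from limb mesenchyme of Notophthalmus viridescens, so that every result comes from 1 cell line. For both groups, A1 cells were held for 5 days in 0.25% fetal calf serum (FCS), in which they fuse into multinucleate myotubes. The control myotubes (MT_0.25%) then received fresh 0.25% FCS medium for 3 days. The treated myotubes (MT_0.25%_SEN_CM) received for 3 days 0.25% FCS medium that had been collected and filtered after 48 hours on washed senescent A1 cells (SEN). The labels of the SEN libraries give 20 µM etoposide for 24 hours and 1 µM nutlin. The study also describes UV irradiation in place of etoposide, and that the medium came from etoposide-treated cells was taken from those labels. All myotubes were collected on day 8 by size, those that passed a 100 µm filter and were held by a 30 µm filter. These sizes are those of the sample labels, and the methods of the study give a larger lower filter. The series also holds myotubes given medium conditioned by proliferating A1 cells (MT_0.25%_PRO_CM, here PRO CM) or 10% FCS (MT_10%), and the mononucleate proliferating (PRO) and senescent cells themselves, 3 libraries each. These 4 groups entered the same fit, so that they share in the filter, the scaling and the estimate of the spread. Their values are given where they show how the SEN CM response differs or which transcripts mark mononucleate cells. The PRO and SEN cells were in 10% FCS and were collected on day 12, the SEN cells with nutlin for 11 days. Fresh medium had not stood on cells, so that the main comparison holds whatever conditioning by any cell does to the medium, and the PRO CM myotubes are the group that shares that step. No source used here states whether the 3 libraries of a group came from separate cultures. The p-values measure the spread between libraries of the same group, pooled over all 6 groups, and that spread may be technical.

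Newt muscle fibres can give up their differentiated state after limb loss. They break up, lower the genes of the contractile apparatus and return nuclei to the cell cycle. The resulting cells contribute to the regenerating blastema. Cultured newt myotubes do part of this when they are given serum, which mammalian myotubes largely resist. Senescent cells have left the cell cycle for good and release a mixture of cytokines, growth factors, proteases and protease inhibitors, known as the senescence-associated secretory phenotype. The comparison therefore asks which transcripts of formed myotubes change when that mixture reaches them through the medium. A cell that enters division builds its replication machinery first and the cyclin B and Cdk1 kinase that drives mitosis later, while muscle identity rests on myogenic regulators such as Myf5 and myogenin and on the myosins, troponins and calcium-handling proteins that they turn on.

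The 6 libraries held 35247127 to 52015212 estimated counts each. Some muscle transcripts were at a high level in the samples labelled myotubes. Myogenin, creatine kinase and 4 myosin transcripts together summed to 1137, 782 and 930.4 CPM in fresh medium and 620.2, 568 and 572 CPM in SEN CM, against a mean of 59.9 CPM in proliferating mononucleate cells, where CPM is a transcript count corrected for library size with TMM factors. The 25 transcripts of the sarcomere list, described below, went the other way. They summed to means of 338 CPM in fresh medium and 373 CPM in SEN CM. Proliferating cells had a mean of 809 CPM and senescent cells of 660 CPM. Transcripts that are far more abundant in mononucleate cells were also present. The 53 transcripts with at least 10 CPM in proliferating cells and at least 20 times their level in the 6 myotube libraries summed to 901, 2231 and 1529.7 CPM in fresh medium and 1733, 2322 and 2563 CPM in SEN CM, which is 1.33% to 3.3% and 2.56% to 3.79% of their sum in proliferating cells. The groups overlapped, their means differed 1.42-fold, and fresh medium library 1 had the lowest sum. The 32 transcripts that mark senescent cells by the same rule summed to 223, 558 and 421 CPM and 453, 645 and 650.1 CPM, which is 1.71% to 4.28% and 3.47% to 4.98% of their sum in senescent cells. Because both sets were chosen by their ratio to these same 6 libraries, the rule itself caps these shares, which are a description. The proliferating and senescent cells were in 10% FCS, so that cell type and serum cannot be told apart in either set. In 10% serum myotubes the 53 transcripts summed to 11655, 8998 and 12226 CPM. The 8 mononucleate markers and 7 senescent markers that pass a 50-fold rule gave 0.426% to 1.28% and 1.1% to 1.68% for the first and 0.598% to 1.0% and 0.875% to 1.53% for the second, in fresh medium and in SEN CM. Timp1.1, which is in both sets, alone made up a mean of 209.6 of the 401 CPM of the senescent markers in fresh medium. None of either marker set was at 0 in all 6 libraries. SEN CM libraries detected fewer transcripts, 24793 to 25240 entries above 0 against 25594 to 26414, and the 500 most abundant entries took 68.1% to 72.2% of their counts against 62.1% to 67.1%. The deposited files also carry job numbers of the processing server. The 6 conditioned medium libraries have input numbers 366 to 376 and the other 12 libraries 141 to 175, so that SEN CM and fresh medium lie in different sets and an effect of the set cannot be told apart from that of SEN CM, while SEN CM and PRO CM lie in the same set.

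A large share of the myotube transcriptome differed between SEN CM and fresh medium, in both directions. Of 23107 tested transcripts, 4291 were higher and 4429 lower at an adjusted p below 0.05 (quasi-likelihood F test in edgeR after TMM scaling, Benjamini-Hochberg adjusted over every tested transcript), which is 37.7% called, 18.6% higher and 19.2% lower. In 25.2% of transcripts all 3 SEN CM libraries lay above all 3 fresh medium libraries, and in 29.7% all lay below. Fold changes are given as edgeR log2 ratios of SEN CM over fresh medium, with their SE unless SD is stated. The direction went with the level of a transcript. Among transcripts of 10 CPM or more over the 6 libraries, 37.8% were called higher and 10.4% lower. Among those of 1 to 10 CPM the shares were 14.9% and 24.0%, and below 1 CPM they were 3.13% and 21.6%. The median log2 fold change went from -0.75 in the lowest of 10 equal groups of transcripts ordered by level to 0.51 in the highest. The balance also rested on the scaling. The TMM factors were 1.09, 1.35 and 1.51 in fresh medium and 0.750, 0.823 and 0.976 in SEN CM, without overlap. A larger factor lowers CPM, so that every CPM and every edgeR fold change given here holds this difference. The median over all transcripts was -0.13 with TMM, -0.55 in limma on log2(TPM + 1) of the deposited TPM, a level scaled by transcript length and library, where 965 transcripts were higher and 13732 lower, and -0.01 after quantile normalization, where 4074 were higher and 3905 lower. Without fresh medium library 3 there were 4678 calls and without SEN CM library 1 5232, against 8720 with all libraries. In bulk RNA, fewer cells of a type and less RNA per cell cannot be told apart.

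**Figure D1:**
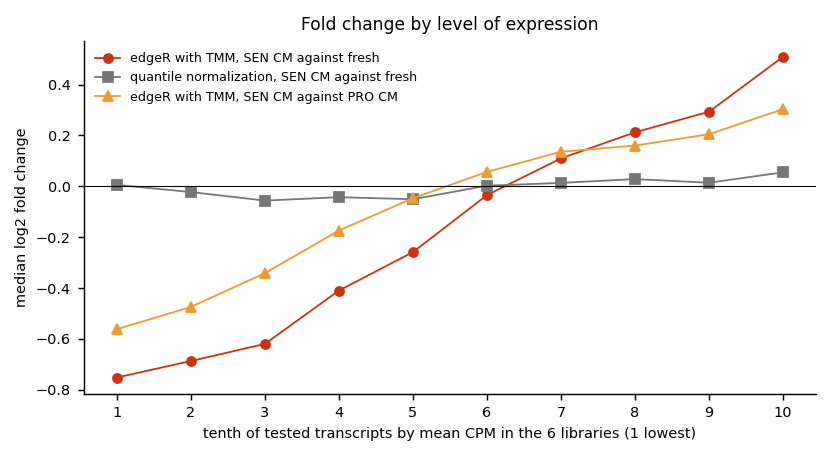
The plot gives the median log2 fold change (y axis) in 10 equal groups of the 23107 tested transcripts ordered by mean CPM in the 6 libraries (x axis), for SEN CM against fresh medium in edgeR with TMM (circles) and after quantile normalization (squares), and for SEN CM against PRO CM (triangles). The circles climb from -0.75 to 0.51 and the triangles from -0.56 to 0.30, while the squares stay between -0.06 and 0.06.

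The response was read through 19 lists that together hold 327 distinct transcripts, 284 of them tested. The 11 panels of muscle, cell cycle, senescence and signalling genes were assembled by the study on these same samples, so their directions are not independent evidence. The other 8 lists gather transcripts by protein name. Names were at hand only for the part of the transcripts that the study listed with names in its tables of differential expression. The fresh medium libraries took part in those tables, which may favour falls. The directions of these lists and of the named falls are therefore not independent evidence either. Of the 284 tested list members 48 rose and 67 fell, with a median log2 fold change of -0.09 against -0.13 over all tested transcripts. Over all 23107 transcripts 18.6% were called higher and 19.2% lower. With TMM scaling the proliferation panel had 8 rises and no fall, the muscle identity panel 1 rise and 9 falls, and the Wnt ligands 1 rise and 7 falls. Every other list had calls in both directions or no more than 1 call. Counts of list members on log2(TPM + 1), given below, are to be read beside all 23107 transcripts. On that scale 13732 of these were called lower and 965 higher.

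**Figure D2:**
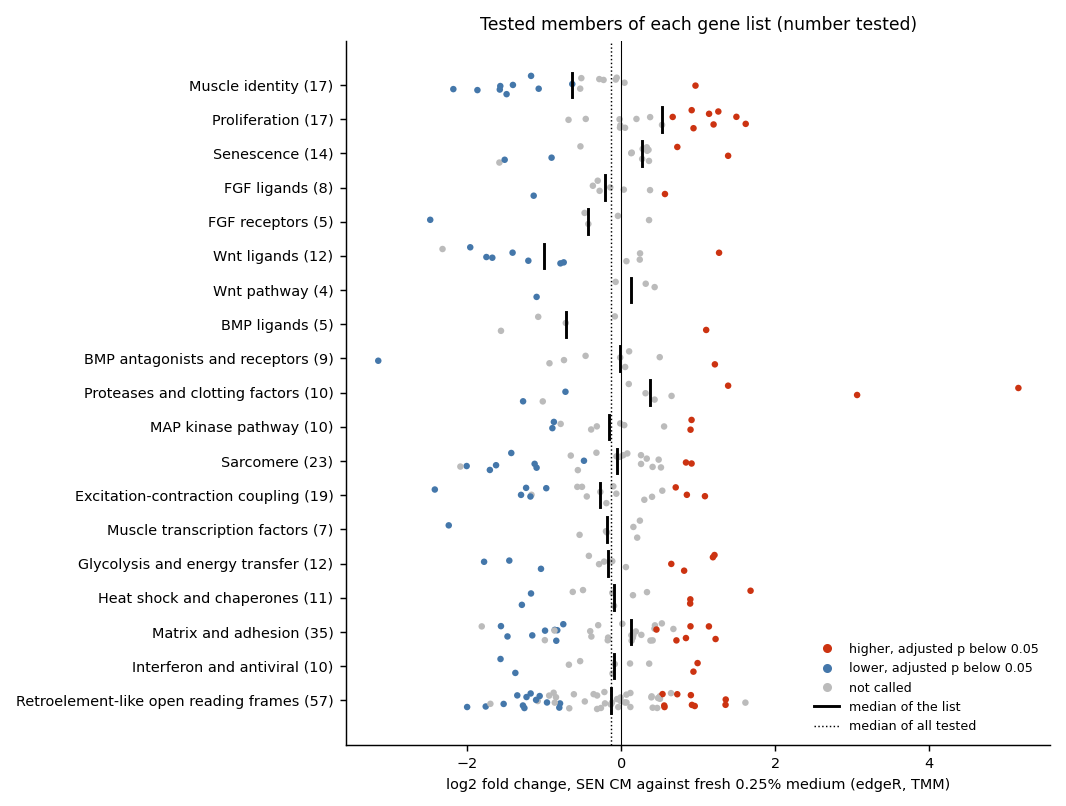
Each point is a tested member of a list (rows, with the number tested), placed at its log2 fold change in SEN CM against fresh medium (x axis, edgeR with TMM). Red points are called higher, blue points lower and grey points not called, black bars are list medians and the dotted line is the median of all tested transcripts at -0.13. The proliferation median lies at 0.53, the muscle identity median at -0.63 and the Wnt ligand median at -1.0.

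Part of the mitosis and DNA replication transcripts rose in SEN CM myotubes under TMM scaling. Of the 17 proliferation panel members, all tested, 8 rose, none fell and 9 did not pass the test, with a list median of 0.53 against -0.13 over all transcripts and 18.6% of transcripts called higher. Cdk1a, the kinase that drives entry into mitosis, was measured at 7.81, 16.3 and 8.76 CPM in fresh medium and at 28.1, 36.9 and 28.0 CPM in SEN CM, a log2 fold change of 1.5 ± 0.30 (edgeR adjusted p = 0.000898). Ccnb1, a cyclin B that activates it, was measured at 8.61, 19.6 and 11.9 CPM in fresh medium and at 23.3, 28.2 and 25.7 CPM in SEN CM, a log2 fold change of 0.94 ± 0.24 (edgeR adjusted p = 0.00481). Ccnb2, a second mitotic B-type cyclin, was measured at 1.22, 2.85 and 1.30 CPM in fresh medium and at 4.09, 6.41 and 6.13 CPM in SEN CM, a log2 fold change of 1.62 ± 0.31 (edgeR adjusted p = 0.000735). In each of these 3 the groups did not overlap, and fresh medium library 2 stood above the other fresh medium libraries. Spc24, a kinetochore subunit, was measured at 5.91, 9.30 and 5.40 CPM in fresh medium and at 15.0, 14.6 and 16 CPM in SEN CM, a log2 fold change of 1.14 ± 0.20 (edgeR adjusted p = 0.00035). Fen1, the flap nuclease of lagging strand synthesis, was measured at 16.1, 15.2 and 11.3 CPM in fresh medium and at 37.3, 32.6 and 32.2 CPM in SEN CM, a log2 fold change of 1.26 ± 0.21 (edgeR adjusted p = 0.000232). The groups were separate here too. Rfc3, a subunit of the clamp loader of replication, was measured at 3.25, 5.64 and 4.09 CPM in fresh medium and at 8.25, 6.37 and 10.0 CPM in SEN CM, a log2 fold change of 0.92 ± 0.26 (edgeR adjusted p = 0.00914). Its groups did not overlap either. Ska1, which couples kinetochores to microtubules, was measured at 3.12, 5.55 and 3.53 CPM in fresh medium and at 5.34, 7.0 and 7.14 CPM in SEN CM, a log2 fold change of 0.67 ± 0.24 (edgeR adjusted p = 0.0316). Its groups overlapped, and the call was lost in 4 of the 6 fits that left out 1 library, with an edgeR adjusted p of up to 0.133 without fresh medium library 3. The number of rises in the panel ran from 7 to 9 over those 6 fits, and 1 member, Kif18b, was called lower without fresh medium library 1.

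Not every replication gene followed. Mcm7, a subunit of the replicative helicase, was measured at 18.9, 41.6 and 26.3 CPM in fresh medium and at 23.8, 29.0 and 37.2 CPM in SEN CM, a log2 fold change of 0.05 ± 0.27 (edgeR adjusted p = 0.895). The groups overlapped, the highest value of all 6 was fresh medium library 2, and after quantile normalization the fold change was -0.19. Prim2, a primase subunit, had a log2 fold change of -0.01 ± 0.26, Ndc80, a kinetochore component, of -0.01 ± 0.37, Cdc20, an activator of the anaphase-promoting complex, of 0.20 ± 0.32, and Aurkba, an Aurora B kinase, of 0.53 ± 0.29, none of which passed the test. The kinesins Kif22 (-0.46) and Kif18b (-0.68) had values below 0 and also did not pass, although Kif22 was called lower in limma on log2(TPM + 0.1). The rises depended on the scale. In limma on log2(TPM + 1), 2 of the 17 members were called higher, Ccnb2 and Fen1, and Ccnb1, Rfc3 and Ska1 had fold changes of -0.14, -0.10 and -0.14. Relative to the median of all transcripts on that scale, these were 0.41, 0.46 and 0.42 higher and Cdk1a was 1.17 higher. After quantile normalization 9 members were called higher and none lower. The summed level of the panel was 94.9, 187 and 120.0 CPM in fresh medium and 193, 222 and 229 CPM in SEN CM, a 1.6-fold difference of means. The 53 mononucleate cell markers differed 1.42-fold in the same direction, and their part in the rise of the panel was not tested. Of these markers 15 were called higher and 6 lower. The shares over all transcripts were 18.6% higher and 19.2% lower, and at 10 CPM or more 37.8% and 10.4%.

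Cell cycle transcripts were also higher in SEN CM than in PRO CM, 2 groups of the same job number set. Over all transcripts 3.0% were higher and 5.34% lower in SEN CM than in PRO CM (694 and 1233 transcripts, against 92 and 1995 in limma on log2(TPM + 1)). Without SEN CM library 2 the calls numbered 619, without SEN CM library 1 947, without PRO CM library 2 1056 and without PRO CM library 1 1268, against 1927. In the fit of all libraries 11 of the 17 panel members were higher and none lower. Cdk1a lay at 5.48, 8.18 and 4.79 CPM in PRO CM, below all 3 SEN CM libraries, with a log2 difference of 2.33 ± 0.31 (edgeR adjusted p = 0.000236). Ccnb1 lay at 6.43, 8.88 and 5.69 CPM in PRO CM, again below every SEN CM library, with a log2 difference of 1.88 ± 0.25 (edgeR adjusted p = 0.00023). Ccnb2 (2.23), Cdc20 (2.06), Ska1 (1.64), Aurkba (1.55), Ndc80 (1.42), Orc6 (1.09), Prim2 (1.01) and Spc24 (0.98) were also higher than in PRO CM, while the log2 difference of Mcm7 was 0.87 ± 0.27 (edgeR adjusted p = 0.0509). Against fresh medium, the log2 fold changes of Cdk1a and Ccnb1 in PRO CM were -0.84 ± 0.30 (edgeR adjusted p = 0.0459) and -0.94 ± 0.24 (edgeR adjusted p = 0.00786). The mononucleate markers moved with this difference as well. They summed to 869.6, 1031 and 748 CPM in PRO CM, below every SEN CM library, and their part was not tested. In 10% serum the panel summed to 656, 623 and 633 CPM, and 16 of its 17 members were lower in SEN CM than in serum, against 23.7% of all transcripts.

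**Figure D3:**
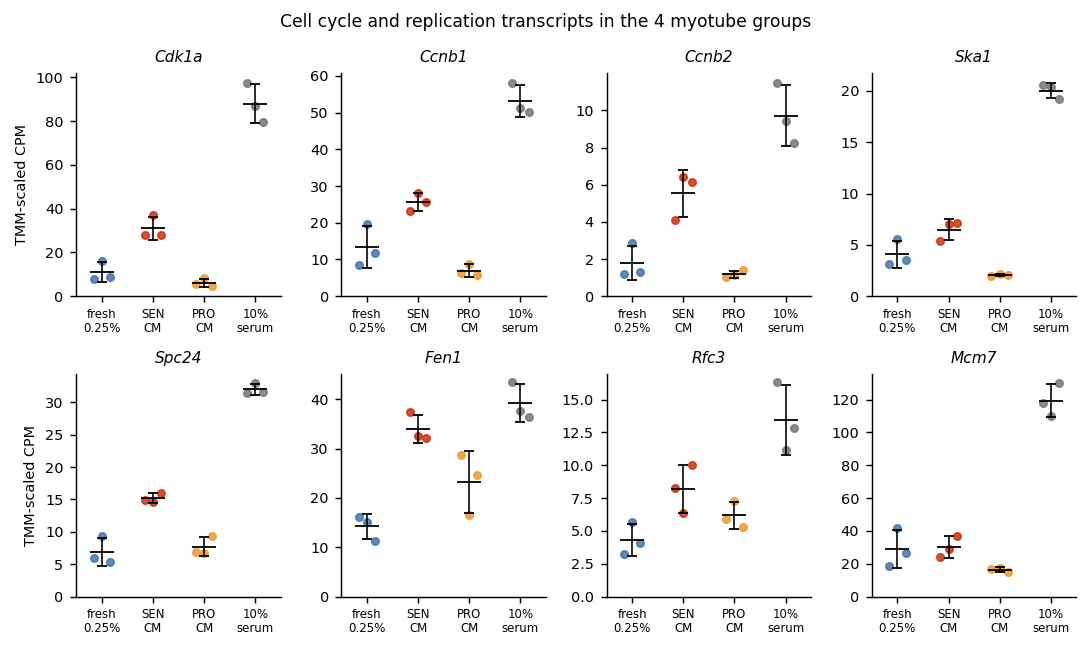
Each panel plots 1 cell cycle or replication transcript, with TMM-scaled CPM on the y axis from 0 and the 4 myotube groups on the x axis. Points are the 3 libraries of a group and bars the mean ± SD. Cdk1a reaches 28.1, 36.9 and 28.0 CPM in SEN CM against 7.81, 16.3 and 8.76 CPM in fresh medium, 5.48, 8.18 and 4.79 CPM in PRO CM and 97.2, 86.9 and 79.7 CPM in 10% serum, while Mcm7 overlaps between SEN CM and fresh medium.

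Under TMM scaling several myosin heavy chains fell, while Myf5, Myog and Ckma did not pass the test. Myf5, a myogenic regulator that is also expressed in proliferating myoblasts, was measured at 168, 166 and 195 CPM in fresh medium and at 167, 164 and 215 CPM in SEN CM, a log2 fold change of 0.04 ± 0.21 (edgeR adjusted p = 0.886). Myog (myogenin, which drives terminal differentiation) was measured at 461, 299.5 and 318 CPM and 415, 323 and 299 CPM, a log2 fold change of -0.06 ± 0.22 (edgeR adjusted p = 0.855). Ckma, the muscle creatine kinase, was measured at 55.7, 43.6 and 55.5 CPM and 42.5, 32.4 and 57.3 CPM, a log2 fold change of -0.23 ± 0.23 (edgeR adjusted p = 0.451). In all 3 the groups overlapped. In limma on log2(TPM + 1) each had a value below 0, -0.77, -0.88 and -1.04 against a median of -0.55 over all transcripts, and each passed the test there (limma adjusted p = 0.0158, 0.000529 and 0.00533). After quantile normalization the values were -0.51 for Myf5 and -0.61 for Myog (limma adjusted p = 0.0661 and 0.00658). Without 1 library at a time Myf5 ran from -0.09 to 0.12 and Myog from -0.20 to 0.19. Ckma lay at 98.2 ± 4.78 CPM (SD, n = 3) and Myf5 at 642 ± 60.5 CPM in 10% serum, both above SEN CM (edgeR adjusted p = 0.000562 and 2.64e-06).

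Among the 21 members of the muscle identity panel, which are mostly myosins, 17 were tested, 1 rose, 9 fell and 7 did not pass. The list median was -0.63 against -0.13 over all transcripts, with 19.2% of all transcripts called lower. There were 0 rises and 15 falls in limma on log2(TPM + 1), where 13732 of all 23107 transcripts were called lower and 965 higher. The falls under TMM scaling numbered 6 to 8 when 1 library was left out. Myh3.1, named after the embryonic skeletal myosin heavy chain, was measured at 239, 166 and 209.9 CPM in fresh medium and at 40.5, 67.4 and 60.7 CPM in SEN CM, a log2 fold change of -1.87 ± 0.28 (edgeR adjusted p = 0.000104). Myh3.3, another transcript of that name, was measured at 206, 144 and 189 CPM in fresh medium and at 52.1, 73.6 and 66.4 CPM in SEN CM, a log2 fold change of -1.49 ± 0.23 (edgeR adjusted p = 0.000149). Symhc1.1, a slow myosin heavy chain, was measured at 152, 115 and 141 CPM in fresh medium and at 56.2, 60.4 and 77.5 CPM in SEN CM, a log2 fold change of -1.07 ± 0.22 (edgeR adjusted p = 0.00117). The 3 SEN CM libraries lay below the 3 fresh medium libraries in each, and the means differed 3.65-fold, 2.81-fold and 2.10-fold. Myh3.2, the remaining panel entry of the name of Myh3.1, was tested and not called. Reads of near-identical myosin transcripts may be split between entries by the quantification. At a lower level, the skeletal heavy chains Mhc-2 (log2 fold change -1.58 ± 0.33) and Myh2 (log2 fold change -1.57 ± 0.34) fell, as did Smyhc1.2 (-2.18 ± 0.73), of which SEN CM library 3 held no count. The unconventional myosins Myo10 (log2 fold change -1.17 ± 0.28), Myo7a (log2 fold change -1.41 ± 0.47) and Myo18b (log2 fold change -0.63 ± 0.22) fell too, of which Myo10 serves filopodia and Myo18b the assembly of the sarcomere. MyHC, a myosin heavy chain, rose (0.97 ± 0.29), at 1.56, 1.19 and 0.981 CPM in fresh medium and 2.65, 2.67 and 1.89 CPM in SEN CM. MyHC and Myo18b were chosen after their values were seen, and their calls were lost in 3 and 4 of the 6 fits that left out 1 library, up to an edgeR adjusted p of 0.0816 and 0.0888. Among the others, calls lost when 1 library was left out were those of Smyhc1.2 (3 of 6, adjusted p up to 0.094 without SEN CM library 3) and Myo7a (4 of 6, adjusted p up to 0.128 without fresh medium library 3).

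The myosins were also low in PRO CM. Myh3.1 lay at 42.1, 73.8 and 49.4 CPM in PRO CM, a log2 difference between the conditioned media of 0.03 ± 0.27 (edgeR adjusted p = 0.958), and against fresh medium its fold change in PRO CM was -1.90 ± 0.28 (edgeR adjusted p = 7.64e-05). Of the 17 tested panel members, 2 were lower and none higher in SEN CM than in PRO CM, Myh2 (-1.25 ± 0.35) and Myo7a (-1.86 ± 0.47). Over all transcripts 5.34% were lower there. Over the panel, 5 of the 17 members were called lower in PRO CM against the same fresh medium libraries, where 12.5% of all transcripts were. In 10% serum Myh3.1 lay at 95.1, 177 and 159 CPM, above every SEN CM library (edgeR adjusted p = 0.000485).

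**Figure D4:**
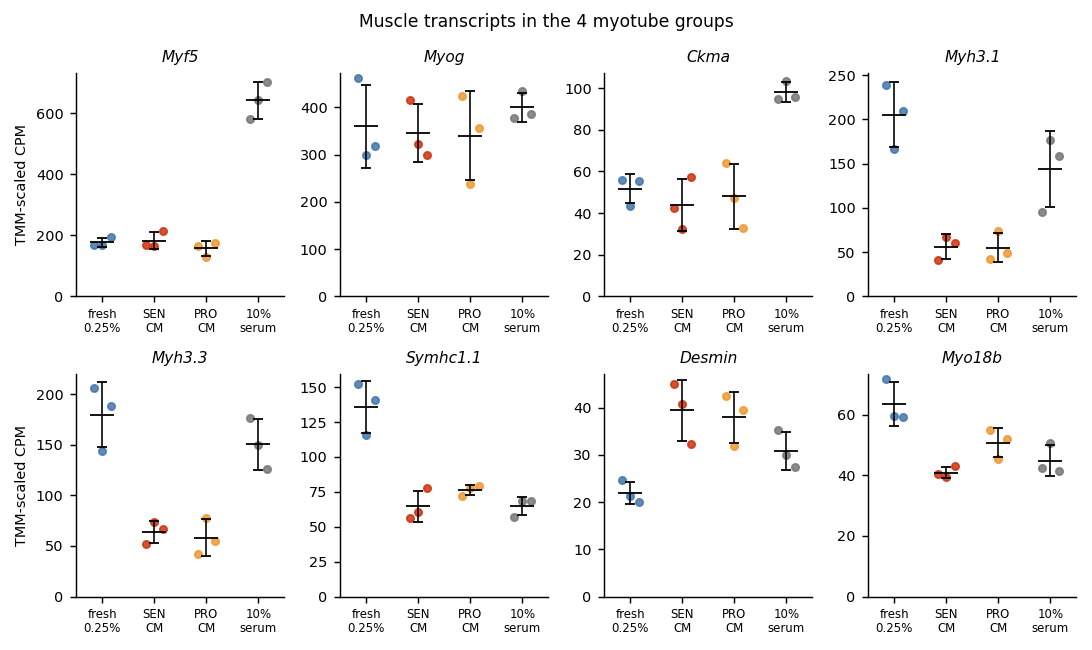
Each panel plots 1 muscle transcript, with TMM-scaled CPM on the y axis from 0 and the 4 myotube groups on the x axis, points for the 3 libraries and bars for the mean ± SD. Myh3.1, Myh3.3 and Symhc1.1 lie lower in both conditioned media than in fresh medium, Myf5, Myog and Ckma overlap between SEN CM and fresh medium, and the plotted Desmin entry is higher in SEN CM.

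Of 23 tested sarcomere transcripts 2 rose and 7 fell (39.1% called against 37.7% over all transcripts, with 1 rise and 18 falls in limma on log2(TPM + 1)), with a median of -0.06, close to -0.13 over all transcripts. Desmin is the intermediate filament that ties myofibrils together. Among the entries of that name, comp15527_c0_seq1 was measured at 24.6, 21.3 and 20.1 CPM in fresh medium and 45.1, 40.8 and 32.4 CPM in SEN CM. Its log2 fold change was 0.84 ± 0.19 (edgeR adjusted p = 0.00192). Slow troponin C, the calcium sensor of the thin filament, was measured at 31.5, 35.2 and 26.8 CPM in fresh medium and at 61.2, 59.6 and 55.5 CPM in SEN CM, a log2 fold change of 0.91 ± 0.20 (edgeR adjusted p = 0.00174). Both were higher in all 3 SEN CM libraries, with slow troponin C also above PRO CM (35.9, 34.8 and 32.7 CPM), and on log2(TPM + 1) the value for slow troponin C was -0.04. The named falls were at low levels, in the thick filament proteins slow myosin-binding protein C (log2 fold change -1.1 ± 0.29) and cardiac myosin-binding protein C (log2 fold change -2.01 ± 0.52), in M-protein (log2 fold change -1.43 ± 0.50) of the M-band, in Leucine-rich repeat-containing protein 39 (log2 fold change -1.62 ± 0.56), in Smoothelin-like protein 1 (log2 fold change -1.71 ± 0.47) and in the regulatory light chain Myl2 (log2 fold change -1.12 ± 0.39). Calls lost on leaving out 1 library were those of M-protein (5 of 6, adjusted p up to 0.134 without fresh medium library 3), Myl2 (3 of 6, adjusted p up to 0.246 without fresh medium library 3) and Leucine-rich repeat-containing protein 39 (4 of 6, adjusted p up to 0.139 without SEN CM library 2), so that the falls numbered 3 to 6 over the 6 fits. Titin (0.03), telethonin (-0.02) and slow troponin T (0.41) did not pass the test.

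Of 19 tested transcripts of excitation-contraction coupling, the chain from the nerve signal to calcium release, 3 rose and 5 fell (median -0.27, 42.1% called against 37.7% over all transcripts, with 0 rises and 13 falls in limma on log2(TPM + 1)). The trimeric intracellular cation channel type B, a counter-ion channel of the calcium store, was measured at 39.6, 39.6 and 46.5 CPM in fresh medium and at 16.9, 19.3 and 19.3 CPM in SEN CM, a log2 fold change of -1.18 ± 0.20 (edgeR adjusted p = 0.000265). Ryanodine receptor 2, a calcium release channel, was measured at 6.84, 6.95 and 6.60 CPM in fresh medium and at 14.6, 11.0 and 11.3 CPM in SEN CM, a log2 fold change of 0.85 ± 0.24 (edgeR adjusted p = 0.00875). The beta 4 subunit of voltage-dependent calcium channels was measured at 4.92, 3.77 and 3.34 CPM in fresh medium and at 9.46, 9.13 and 6.88 CPM in SEN CM, a log2 fold change of 1.09 ± 0.25 (edgeR adjusted p = 0.00253). The groups did not overlap in any of the 3, with the cation channel lower and the other members higher in SEN CM. The list holds other ryanodine receptor entries, another Ryr2 entry among them, and none of these was called. Musk, the receptor kinase of the neuromuscular junction, rose as well (0.71 ± 0.23). A DMD (dystrophin) transcript (-1.30 ± 0.30), a calcium-transporting ATPase (-1.23 ± 0.36), Cacng6 (-0.97 ± 0.34) and a calcium channel alpha 1 transcript (-2.42 ± 0.59) fell from means of at most 1.96 CPM. Calls lost on leaving out 1 library were those of the ATPase (2 of 6, adjusted p up to 0.0635 without fresh medium library 3), Cacng6 (4 of 6, adjusted p up to 0.234 without fresh medium library 3), ryanodine receptor 2 (1 of 6, adjusted p up to 0.0534 without SEN CM library 1) and Musk (3 of 6, adjusted p up to 0.102 without SEN CM library 1). On log2(TPM + 1) Musk had a fold change of -0.31. The list of muscle transcription factors also takes in entries named after RNA-binding proteins. Of its 7 tested members only Myocardin, a coactivator of serum response factor, was called. Myocardin lay at 0.520, 0.202 and 0.370 CPM in fresh medium and 0.0959, 0.0972 and 0.0266 CPM in SEN CM (-2.24 ± 0.60, edgeR adjusted p = 0.0069). The share called is 14.3% of the 7, against 37.7% called over all transcripts.

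The largest change of any list member was in a protease inhibitor. Timp1.2, 1 of 3 transcripts named after the metalloproteinase inhibitor TIMP1, was measured at 0.364, 0.390 and 0.446 CPM in fresh medium and at 15.2, 14.4 and 14.0 CPM in SEN CM, a log2 fold change of 5.16 ± 0.24 (edgeR adjusted p = 2.72e-11) and a 36.4-fold difference of means. The values within each group lay close together and far from the other group. In PRO CM Timp1.2 lay at 9.31, 7.24 and 10.6 CPM, 22.6-fold above fresh medium, and SEN CM was higher than PRO CM by 0.68 ± 0.20 (edgeR adjusted p = 0.0343). It was low in 10% serum, at 0.215, 0.345 and 0.320 CPM, and in the mononucleate cells, with means of 0.833 CPM in PRO and 0.251 CPM in SEN. Timp1.1 is far more abundant in proliferating cells (22118 CPM) and served as a mononucleate marker. It was measured at 103, 305 and 221 CPM in fresh medium and at 250.4, 368 and 372 CPM in SEN CM, a log2 fold change of 0.65 ± 0.32 that did not pass (edgeR adjusted p = 0.108), with overlapping groups. Reads of the 3 Timp1 transcripts may be split between them where their sequences agree.

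Of 10 tested proteases, inhibitors and clotting factors 3 rose and 2 fell (median 0.38, 50% called against 37.7% over all transcripts, with 2 rises and 5 falls in limma on log2(TPM + 1)). F11, coagulation factor XI, was measured at 0.755, 1.08 and 0.816 CPM in fresh medium and at 4.70, 6.46 and 11.3 CPM in SEN CM, a log2 fold change of 3.06 ± 0.36 (edgeR adjusted p = 1.16e-05). All SEN CM libraries lay above fresh medium, with SEN CM library 3 the highest. F11 is also expressed by the mononucleate cells, at a mean of 93.7 CPM in SEN and 19.2 CPM in PRO, and lay at 3.01, 6.15 and 2.41 CPM in PRO CM and 3.99, 4.66 and 6.54 CPM in 10% serum. The part of mononucleate cells in its level was not tested. The matrix metalloproteinase Mmp3/10a was measured at 0.390, 0.578 and 0.523 CPM in fresh medium and at 0.991, 2.16 and 0.799 CPM in SEN CM, a log2 fold change of 1.39 ± 0.33 (edgeR adjusted p = 0.0036). It is in both marker sets of mononucleate cells, with means of 135 CPM in SEN and 19.2 CPM in PRO, and their part in its rise was not tested. Its relative Mmp3/10b was measured at 15.3, 11.2 and 14.1 CPM in fresh medium and at 8.06, 8.89 and 7.65 CPM in SEN CM, a log2 fold change of -0.72 ± 0.21 (edgeR adjusted p = 0.0108). The groups did not overlap in either, and the transcripts went in opposite directions. F8, coagulation factor VIII, fell (-1.27 ± 0.37). Without SEN CM library 2, the highest, the call for Mmp3/10a was lost (edgeR adjusted p = 0.0657), and that for F8 was lost in 2 of 6 fits, up to 0.0938 without fresh medium library 3. The gelatinase Mmp9th (0.32 ± 0.32) and factor X, F10 (0.10 ± 0.21), did not pass.

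**Figure D5:**
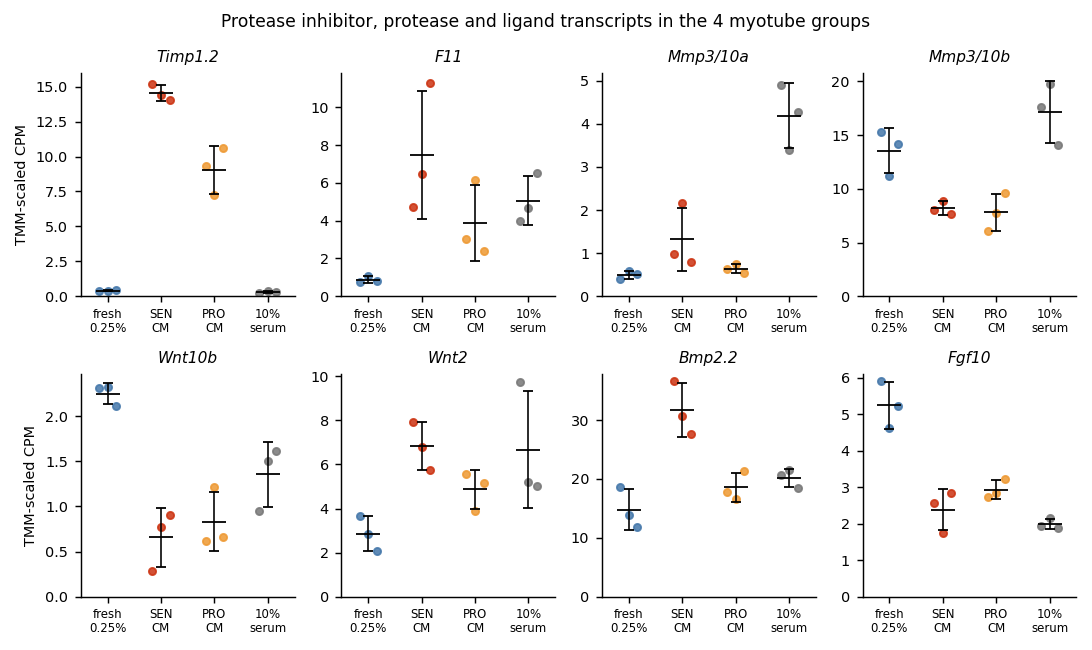
Each panel plots 1 transcript of an inhibitor, protease, clotting factor or ligand, with TMM-scaled CPM on the y axis from 0 and the 4 myotube groups on the x axis, points for the 3 libraries and bars for the mean ± SD. Timp1.2 lies at 15.2, 14.4 and 14.0 CPM in SEN CM and below 1 CPM in fresh medium and 10% serum, and Mmp3/10b, Wnt10b and Fgf10 lie lower in SEN CM than in fresh medium.

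The senescence panel, which covers secreted factors and nuclear proteins that change in senescent cells, had 14 tested members. Of these 2 rose and 2 fell (28.6% called against 37.7% over all transcripts, with 0 rises and 7 falls in limma on log2(TPM + 1)), and the median was 0.28. Il18, the cytokine interleukin-18, was measured at 3.54, 5.35 and 3.77 CPM in fresh medium and at 6.30, 7.92 and 6.82 CPM in SEN CM, a log2 fold change of 0.73 ± 0.20 (edgeR adjusted p = 0.00884). Csf1, the growth factor of macrophages, was measured at 2.50, 11.0 and 9.83 CPM in fresh medium and at 1.28, 4.49 and 2.37 CPM in SEN CM, a log2 fold change of -1.51 ± 0.54 (edgeR adjusted p = 0.0325). Il6, interleukin-6, was measured at 1.67, 1.37 and 2.55 CPM in fresh medium and at 0.895, 0.899 and 1.2 CPM in SEN CM, a log2 fold change of -0.90 ± 0.34 (edgeR adjusted p = 0.0439). Il18 and Il6 did not overlap between groups and Csf1 did, with fresh medium library 1 within the range of SEN CM. The second rise was Mmp3/10a. In DESeq2 the panel had 2 rises and 1 fall. With the replicate number as a block the edgeR adjusted p of Il6 was 0.055. Calls lost on leaving out 1 library were those of Csf1 (4 of 6, adjusted p up to 0.145 without SEN CM library 1), Il6 (4 of 6, adjusted p up to 0.25 without fresh medium library 3) and Il18 (1 of 6, adjusted p up to 0.0532 without fresh medium library 3). On log2(TPM + 1) Il18 had a value of -0.08. The nuclear lamina gene Lmnb1 (0.14 ± 0.25), the chromatin proteins Hmgb1 (0.36 ± 0.18) and Hmgb2 (0.28 ± 0.21) and the chemokine Il8 (0.34 ± 0.20) did not pass the test. Il18 (0.71 ± 0.20), Lmnb1 (1.04 ± 0.25) and Hmgb1 (0.59 ± 0.18) were higher in SEN CM than in PRO CM. Of the 14 tested members 1 was lower there, and over all transcripts 3.0% were higher and 5.34% lower.

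FGFs are secreted growth factors that act through receptor tyrosine kinases and the MAP kinase cascade. Of the 5 FGF receptor transcripts 1 fell and none rose (20% called against 37.7% over all transcripts). Fgfr3.2 was measured at 0.573, 0.636 and 0.676 CPM in fresh medium and at 0.192, 0.0486 and 0.107 CPM in SEN CM, a log2 fold change of -2.48 ± 0.53 (edgeR adjusted p = 0.00166). All 3 SEN CM libraries were lower, and PRO CM lay at 0.823, 1.04 and 0.384 CPM, above SEN CM (edgeR adjusted p = 0.00441). The more abundant Fgfr3.1 was measured at 46.8, 38.7 and 28.7 CPM in fresh medium and at 54.6, 49.2 and 43.0 CPM in SEN CM, a log2 fold change of 0.36 ± 0.23 (edgeR adjusted p = 0.221). Fgfr2.2 was measured at 29.5, 42.4 and 45.1 CPM in fresh medium and at 25.6, 28.0 and 30.5 CPM in SEN CM, a log2 fold change of -0.48 ± 0.20 (edgeR adjusted p = 0.0641). Fgfr2.1, whose protein name is that of FGF receptor 3, was measured at 6.30, 7.16 and 7.71 CPM in fresh medium and at 5.43, 5.83 and 4.50 CPM in SEN CM, a log2 fold change of -0.43 ± 0.19 (edgeR adjusted p = 0.0773). Of these 3, Fgfr2.1 had no overlap between groups and none passed the test. Fgfr1 was measured at 0.416, 1.23 and 0.727 CPM in fresh medium and at 0.416, 0.777 and 1.15 CPM in SEN CM, a log2 fold change of -0.04 ± 0.44 (edgeR adjusted p = 0.948). Fgfr1, whose groups overlapped, was at 0.21 after quantile normalization. With that scaling 3 receptors were called lower, and on log2(TPM + 1) 3, where Fgfr3.1 had a fold change of -0.48.

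Of 8 tested members of the FGF ligand list 1 rose and 1 fell (median -0.21, 25% called against 37.7% over all transcripts, with 0 rises and 6 falls in limma on log2(TPM + 1)), and after quantile normalization none rose. The list takes in the intracellular homologues Fgf12, Fgf13 and Fgf14. Its rise was in Fgf13, so that no tested secreted ligand was called higher. Fgf10, a ligand of limb outgrowth, was measured at 5.91, 4.61 and 5.21 CPM in fresh medium and at 2.56, 1.75 and 2.85 CPM in SEN CM, a log2 fold change of -1.14 ± 0.24 (edgeR adjusted p = 0.00159). The groups were separate, and Fgf10 lay at 2.73, 2.83 and 3.23 CPM in PRO CM. Fgf13, an intracellular FGF homologue that binds sodium channels, was measured at 9.58, 7.32 and 7.32 CPM in fresh medium and at 14.2, 11.2 and 10.4 CPM in SEN CM, a log2 fold change of 0.57 ± 0.21 (edgeR adjusted p = 0.0394). It was called in 2 of the 6 fits that left out 1 library, and the highest edgeR adjusted p was 0.182 without SEN CM library 1. Fgf7 (0.38 ± 0.17), Fgf8 (-0.28 ± 0.24), Fgf9 (0.03 ± 0.36), Fgf12 (-0.30 ± 0.19), Fgf14 (-0.14 ± 0.60) and Fgf19 (-0.37 ± 0.35) did not pass, and Fgf18 and Fgf24 were too low to test.

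Wnt ligands are secreted lipid-modified proteins that act through Frizzled receptors, in part by way of beta-catenin. Of 12 tested Wnt ligands 7 fell and 1 rose, a median of -1.0 against -0.13 over all transcripts. The ligands lie at a median of 1.46 CPM. Among all transcripts of 1 to 10 CPM 24.0% were called lower, and those of 1.11 to 1.99 CPM had a median of -0.41. After quantile normalization the list gave 1 rise and 4 falls, with a median of -0.37 against -0.01 over all transcripts. In limma on log2(TPM + 1) it gave 1 rise and 8 falls, with a median of -0.82 against -0.55. Wnt10b was measured at 2.32, 2.33 and 2.12 CPM in fresh medium and at 0.288, 0.777 and 0.906 CPM in SEN CM, a log2 fold change of -1.75 ± 0.35 (edgeR adjusted p = 0.000978). Wnt8b was measured at 1.43, 1.81 and 2.17 CPM in fresh medium and at 0.575, 0.462 and 0.666 CPM in SEN CM, a log2 fold change of -1.67 ± 0.34 (edgeR adjusted p = 0.000978). The groups did not overlap in either. Wnt2b, the most abundant of the ligands that fell, was measured at 15.8, 19.8 and 15.8 CPM in fresh medium and at 9.08, 9.11 and 11.5 CPM in SEN CM, a log2 fold change of -0.79 ± 0.29 (edgeR adjusted p = 0.0352). Wnt2, the ligand that rose, was measured at 3.64, 2.85 and 2.05 CPM in fresh medium and at 7.93, 6.80 and 5.76 CPM in SEN CM, a log2 fold change of 1.27 ± 0.26 (edgeR adjusted p = 0.00117). These were separate as well, with every SEN CM library below fresh medium for Wnt2b and above it for Wnt2. Wnt11b (log2 fold change -1.41 ± 0.50) and Wnt5b (log2 fold change -0.75 ± 0.26) also fell. The Wnt11b value is that of comp3405575_c0_seq1, and the list holds another entry of that label, comp28656_c1_seq2. A transcript labelled Protein Wnt.1 (log2 fold change -1.21 ± 0.40) and Wnt3 (log2 fold change -1.96 ± 0.63) completed the falls. Wnt7b, the next in abundance after Wnt2b, did not pass (0.07 ± 0.16). Wnt10b, Wnt8b and Wnt2 were called in every fit that left out 1 library. Lost calls were those of Wnt2b (5 of 6, adjusted p up to 0.115 without SEN CM library 1), Wnt5b (4 of 6, adjusted p up to 0.0906 without SEN CM library 1), Wnt11b (4 of 6, adjusted p up to 0.105 without fresh medium library 2), Protein Wnt.1 (4 of 6, adjusted p up to 0.0966 without fresh medium library 3) and Wnt3 (3 of 6, adjusted p up to 0.105 without SEN CM library 2), and the falls numbered 2 without fresh medium library 2 to 5. No Wnt ligand passed the test between SEN CM and PRO CM, where the log2 difference of Wnt10b was -0.32 ± 0.37 and that of Wnt2 0.49 ± 0.26.

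Axin2, an inhibitor of beta-catenin that is itself a target of Wnt signalling, was measured at 1.59, 1.6 and 1.47 CPM in fresh medium and at 0.799, 0.632 and 0.746 CPM in SEN CM, a log2 fold change of -1.1 ± 0.26 (edgeR adjusted p = 0.00287). The groups did not overlap, and PRO CM lay at 0.798, 0.843 and 0.794 CPM. The beta-catenin transcripts Ctnnb1.s.2 (0.32 ± 0.19) and Ctnnb1.s.1 (-0.07 ± 0.23) and the antagonist Dkk1 (0.44 ± 0.29) did not pass the test.

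Of 5 BMP ligands, growth factors of the TGF-beta family, only Bmp2.2 was called (median -0.72, 20% called against 37.7% over all transcripts). In limma on log2(TPM + 1) the list had 0 rises and 3 falls. The other 4 members, among them another BMP-2 entry labelled Bmp2, had values below 0 under TMM scaling. Bmp2.2 was measured at 18.6, 13.9 and 11.8 CPM in fresh medium and at 36.7, 30.8 and 27.7 CPM in SEN CM, a log2 fold change of 1.1 ± 0.21 (edgeR adjusted p = 0.000761). All SEN CM libraries lay above fresh medium and above PRO CM, where Bmp2.2 lay at 17.8, 16.6 and 21.3 CPM (0.77 ± 0.21, edgeR adjusted p = 0.0285). Bmp7, the most abundant ligand, was measured at 466 ± 89.0 CPM in fresh medium and 440.4 ± 40.8 CPM in SEN CM (SD, n = 3), a log2 fold change of -0.08 ± 0.21 (edgeR adjusted p = 0.779). Of 9 tested BMP antagonists and receptors 1 rose and 1 fell (22.2% called against 37.7% over all transcripts, with 0 rises and 3 falls in limma on log2(TPM + 1)). Nog2, a noggin that binds BMPs outside the cell, was measured at 0.573, 0.622 and 0.408 CPM in fresh medium and at 0.959, 1.34 and 1.39 CPM in SEN CM, a log2 fold change of 1.22 ± 0.31 (edgeR adjusted p = 0.00465). It was also higher than in PRO CM (2.14 ± 0.35, edgeR adjusted p = 0.00125) and lower than in 10% serum, which had 10.6, 13.8 and 13.9 CPM. The transcript labelled Cd247.1, whose protein name is kielin/chordin-like protein, was measured at 2.16, 2.83 and 2.61 CPM in fresh medium and at 0.160, 0.0243 and 0.666 CPM in SEN CM, a log2 fold change of -3.15 ± 0.80 (edgeR adjusted p = 0.00483). It was lower in every SEN CM library and lay at 0, 0.0744 and 0.999 CPM in PRO CM. The antagonists Grem1 (-0.01) and Chrd (-0.46) and the receptors Bmpr1b.1 (-0.93) and Bmpr1b.2 (0.05) did not pass.

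Of 10 MAP kinase pathway transcripts, which relay growth factor signals to the nucleus, 2 rose and 2 fell (median -0.16, 40% called against 37.7% over all transcripts, with 0 rises and 7 falls in limma on log2(TPM + 1)). Jund, a subunit of the AP-1 transcription factor, was measured at 13.1, 12.6 and 11.8 CPM in fresh medium and at 25.0, 22.4 and 22.7 CPM in SEN CM, a log2 fold change of 0.90 ± 0.18 (edgeR adjusted p = 0.000879). The groups did not overlap, and Jund was higher in every SEN CM library. Mapk8ipl, named after a kinase interacting protein, rose from 1.91 ± 0.174 to 3.62 ± 0.518 CPM (SD, n = 3, 0.91 ± 0.22), and Mapk4, an atypical MAP kinase, fell (-0.87 ± 0.31), a call lost in 4 of the 6 fits, up to 0.194 without fresh medium library 3. On log2(TPM + 1) no member was called higher, with fold changes of -0.39 for Jund and -0.60 for Mapk8ipl, against the median of -0.55. Map3k7, the most abundant member, did not pass (0.56 ± 0.23).

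Of 12 tested transcripts of energy metabolism 4 rose and 3 fell (median -0.17, 58.3% called against 37.7% over all transcripts, with 0 rises and 4 falls in limma on log2(TPM + 1)). A transcript named phosphoglycerate kinase, an enzyme of glycolysis, was measured at 15.9, 11.0 and 13.1 CPM in fresh medium and at 4.89, 4.37 and 5.33 CPM in SEN CM, a log2 fold change of -1.45 ± 0.22 (edgeR adjusted p = 0.000112). Another of the same name rose (0.65 ± 0.19), at 9.29, 7.40 and 6.5 CPM and 12.7, 13.1 and 10.5 CPM. A transcript named after the catalytic alpha-2 subunit of AMP-activated protein kinase, the energy sensor of the cell, was measured at 49.1, 27.7 and 21.9 CPM and 96.1, 71.8 and 60.8 CPM, a log2 fold change of 1.21 ± 0.30 (edgeR adjusted p = 0.00408). In these 3 the groups did not overlap, and fresh medium library 1 was the nearest to SEN CM for the kinase. Another alpha 2 entry of the same kinase rose (0.82 ± 0.22), while adenylate kinase 1 (log2 fold change -1.78 ± 0.41), which balances adenine nucleotides, and a transcript similar to pyruvate dehydrogenase kinase isozyme 1, which restrains the entry of pyruvate into the citrate cycle, fell (-1.04 ± 0.21). The fourth rise was in a transcript named phospho-2-dehydro-3-deoxyheptonate aldolase (1.19 ± 0.20), which the name pattern took in and which is not an enzyme of glycolysis. The call for the second phosphoglycerate kinase was lost without fresh medium library 3 (edgeR adjusted p = 0.071), and on log2(TPM + 1) its value was -0.08 and that of the other alpha 2 entry -0.02.

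Of 11 tested heat shock proteins and chaperones 3 rose and 2 fell (median -0.09, 45.5% called against 37.7% over all transcripts, with 0 rises and 5 falls in limma on log2(TPM + 1)). A heat shock 27 kDa protein fragment was measured at 0.625, 0.766 and 0.548 CPM in fresh medium and at 2.49, 2.24 and 1.52 CPM in SEN CM, a log2 fold change of 1.68 ± 0.36 (edgeR adjusted p = 0.00161). DnaJ homolog subfamily C member 1, a co-chaperone of the endoplasmic reticulum, was measured at 28.0, 22.9 and 28.1 CPM in fresh medium and at 9.81, 11.0 and 14.3 CPM in SEN CM, a log2 fold change of -1.17 ± 0.23 (edgeR adjusted p = 0.000854). The groups were separate in both. An Hsp70 transcript (0.90 ± 0.29) and the beta subunit of T-complex protein 1 (0.90 ± 0.25), part of the chaperonin that folds actin and tubulin, rose, and an Hsp90 fragment fell (-1.29 ± 0.41). The Hsp90 fragment lay at 1.57, 1.93 and 1.05 CPM in PRO CM, above every SEN CM library (-2.33 ± 0.41, edgeR adjusted p = 0.00198). Calls lost on leaving out 1 library were those of Hsp70 (4 of 6, adjusted p up to 0.13 without fresh medium library 3), Hsp90 (3 of 6, adjusted p up to 0.102 without fresh medium library 3) and T-complex protein 1 (2 of 6, adjusted p up to 0.0653 without fresh medium library 3). On log2(TPM + 1) the value of the 27 kDa protein was -0.01.

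Matrix and adhesion transcripts formed the largest list after the retroelement-like ones. Of 35 tested 6 rose and 8 fell, a median of 0.13 (40% called against 37.7% over all transcripts, with 1 rise and 22 falls in limma on log2(TPM + 1)). ADAM 13, a membrane-bound metalloprotease, was measured at 6.61, 5.09 and 3.68 CPM in fresh medium and at 13.7, 12.3 and 9.89 CPM in SEN CM, a log2 fold change of 1.23 ± 0.22 (edgeR adjusted p = 0.000395). Cadherin 4, a calcium-dependent adhesion protein, was measured at 2.24, 4.16 and 3.24 CPM in fresh medium and at 0.831, 1.58 and 1.04 CPM in SEN CM, a log2 fold change of -1.48 ± 0.26 (edgeR adjusted p = 0.000354). Protocadherin gamma-C4 was measured at 1.56, 2.01 and 2.69 CPM in fresh medium and at 0.863, 0.510 and 0.773 CPM in SEN CM, a log2 fold change of -1.56 ± 0.33 (edgeR adjusted p = 0.00133). The groups were separate in all 3, with ADAM 13 higher and the cadherins lower in SEN CM. Further falls among the named members were in protocadherin 1A1 (-1.15 ± 0.30), laminin subunit gamma-2 (-0.99 ± 0.37), a component of basement membranes, and the secreted protease ADAMTS-15a (-0.86 ± 0.27). Further rises were in an ADAMTS-20 fragment (1.14 ± 0.32) and in a transcript similar to THSD7B, a thrombospondin domain protein (0.90 ± 0.23). Of these, protocadherin gamma-C4 (-1.12 ± 0.33), protocadherin 1A1 (-1.05 ± 0.30) and ADAMTS-15a (-0.98 ± 0.27) were also lower than in PRO CM. With the replicate number as a block the edgeR adjusted p of laminin gamma-2 was 0.0505. Calls lost on leaving out 1 library were those of laminin gamma-2 (4 of 6, adjusted p up to 0.204 without fresh medium library 3), ADAMTS-15a (3 of 6, adjusted p up to 0.0899 without SEN CM library 1) and ADAMTS-20 (1 of 6, adjusted p up to 0.0641 without SEN CM library 1). The counts without fresh medium library 3 were 4 rises and 5 falls, and without SEN CM library 1 3 and 4.

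Of 10 interferon and antiviral transcripts 2 rose and 2 fell (median -0.10, 40% called against 37.7% over all transcripts, with 0 rises and 7 falls in limma on log2(TPM + 1)). PARP9, an ADP-ribosyltransferase induced by interferon in mammals, was measured at 21.2, 13.7 and 13.7 CPM in fresh medium and at 4.89, 5.13 and 6.34 CPM in SEN CM, a log2 fold change of -1.57 ± 0.29 (edgeR adjusted p = 0.000587). PARP12, another member of that family, was measured at 6.22, 4.41 and 4.28 CPM in fresh medium and at 10.8, 10.8 and 7.94 CPM in SEN CM, a log2 fold change of 0.99 ± 0.26 (edgeR adjusted p = 0.0055). The groups did not overlap and the pair went in opposite directions. An interferon-inducible GTPase was measured at 2.08, 2.07 and 2.42 CPM in fresh medium and at 0.511, 1.14 and 0.853 CPM in SEN CM, a log2 fold change of -1.37 ± 0.33 (edgeR adjusted p = 0.00364). Its SEN CM libraries all lay below fresh medium, and PARP9 and the GTPase were also low in PRO CM, at 7.69, 5.28 and 4.79 CPM and 0.643, 1.02 and 0.768 CPM. A transcript similar to the helicase MOV10, which acts on viral and retroelement RNA, rose (0.94 ± 0.20). The counts were 2 rises and 2 falls in each of the 6 fits that left out 1 library.

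The 57 tested retroelement-like open reading frames, named after reverse transcriptases, polyproteins and envelope proteins, gave 9 rises and 13 falls (38.6% called against 37.7% over all transcripts, with 2 rises and 33 falls in limma on log2(TPM + 1)), with a median of -0.13 equal to that of all transcripts to 2 decimals. The most abundant of the named ones, a reverse transcriptase-like protein, was measured at 110.5, 68.4 and 52.8 CPM in fresh medium and at 234, 211 and 148 CPM in SEN CM, a log2 fold change of 1.36 ± 0.28 (edgeR adjusted p = 0.00132). An ORF2-encoded protein fragment was measured at 1.38, 1.56 and 2.22 CPM in fresh medium and at 5.21, 4.03 and 4.13 CPM in SEN CM, a log2 fold change of 1.36 ± 0.31 (edgeR adjusted p = 0.0024). Both were higher in every SEN CM library. A reverse transcriptase fragment was measured at 1.15, 26.1 and 25.5 CPM in fresh medium and at 3.1, 6.49 and 3.60 CPM in SEN CM, a log2 fold change of -2.0 ± 0.61 (edgeR adjusted p = 0.0149). Fresh medium library 1 lay below all 3 SEN CM libraries there, and the other fresh medium libraries lay far above them. All 6 named falls lost their call in at least 1 of the 6 fits that left out 1 library, among them this fragment (3 of 6, adjusted p up to 0.0778 without fresh medium library 3), while both named rises were called in all 6. Without fresh medium library 3 the list gave 5 rises and 4 falls, without SEN CM library 1 5 and 3, and after quantile normalization 7 and 5.

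The largest changes were then taken over all transcripts, among those that were called, did not overlap between groups and reached a mean of 50 counts or more in whichever group was higher. Of 7415 such transcripts 345 had an informative protein name. The largest named rise was Timp1.2, followed by Ncoa1, F11 and Bcr. Ncoa1, named after a coactivator of nuclear receptors, was measured at 4.09, 4.31 and 3.14 CPM in fresh medium and at 40.2, 36.1 and 27.5 CPM in SEN CM, a log2 fold change of 3.17 ± 0.25 (edgeR adjusted p = 6.72e-08). Bcr, named after the breakpoint cluster region protein, was measured at 0.520, 0.304 and 0.229 CPM in fresh medium and at 3.42, 3.33 and 1.65 CPM in SEN CM, a log2 fold change of 3.06 ± 0.64 (edgeR adjusted p = 0.00142). FGD6, named after an exchange factor for Cdc42, was measured at 31.0, 19.5 and 14.4 CPM in fresh medium and at 106, 105 and 71.2 CPM in SEN CM, a log2 fold change of 2.12 ± 0.29 (edgeR adjusted p = 5.85e-05). All 3 were higher in every SEN CM library. They were also higher in PRO CM, at 31.5, 17.5 and 30.0 CPM, 3.63, 5.51 and 31.9 CPM and 72.3, 58.3 and 104 CPM, where Bcr exceeded SEN CM (edgeR adjusted p = 0.0149) and PRO CM library 3 stood far above the others. Further named rises were the heat shock 27 kDa fragment given above and those in transmembrane protein 200C (1.80 ± 0.21), AI848100 (1.85 ± 0.42), a protein-L-isoaspartate O-methyltransferase domain protein (1.79 ± 0.37) and bestrophin-3, a chloride channel (1.72 ± 0.32). Transmembrane protein 200C was lower than in PRO CM, where it lay at 45.7, 55.0 and 67.6 CPM (-1.01 ± 0.20, edgeR adjusted p = 0.00457).

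Cd247.1 was the largest fall with a protein name. A CD3 gamma/delta chain transcript, named after a T cell receptor component, was measured at 2.06, 7.94 and 4.72 CPM in fresh medium and at 0.416, 0.632 and 0.959 CPM in SEN CM, a log2 fold change of -2.87 ± 0.55 (edgeR adjusted p = 0.00074). The Asc-type amino acid transporter 1, which carries small neutral amino acids, was measured at 51.0, 46.6 and 66.8 CPM in fresh medium and at 10.9, 12.1 and 16.3 CPM in SEN CM, a log2 fold change of -2.06 ± 0.20 (edgeR adjusted p = 1.08e-06). Cad1 was measured at 33.5, 38.4 and 38.9 CPM in fresh medium and at 11.8, 9.86 and 9.43 CPM in SEN CM, a log2 fold change of -1.83 ± 0.20 (edgeR adjusted p = 3.57e-06). The groups were separate in each, and the transporter and Cad1 lay at 77.0, 81.7 and 94.6 CPM and 44.7, 44.8 and 44.9 CPM in 10% serum, above fresh medium in every library. Cad1 lay at 199 CPM in proliferating cells on average. The remaining named falls were in a regulatory subunit of cAMP-dependent protein kinase (-2.07 ± 0.48), BAI1-associated protein 3 (-1.95 ± 0.39), KLB, the co-receptor of endocrine FGFs (-1.72 ± 0.34), Myh3.1, adenylate kinase 1 and Wnt10b.

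Regardless of name, the largest changes were in transcripts that are near absent in 1 group. comp1152536_c0_seq1, an uncharacterized protein, held 2 counts over the 3 fresh medium libraries and 336 over SEN CM, a ratio of 284 with an exact 95% interval of 78.1 to 2357 for counting error only. comp215332_c0_seq1 held 888 counts in fresh medium and 2 in SEN CM, a ratio of 262 with an interval of 72.4 to 2170.4. Neither group was at 0 in all of its libraries. comp1814600_c0_seq1 rose from 0, 0 and 0.280 to 5.66, 4.54 and 5.52 CPM and comp107991_c0_seq2 from 0.234, 0.0434 and 0.102 to 5.37, 3.69 and 3.52 CPM. comp2741286_c0_seq1 fell from 7.96, 12.1 and 17.5 to 0.0959, 0.0486 and 0.640 CPM and comp4528626_c0_seq1 from 1.48, 2.46 and 2.13 to 0.0320, 0.0486 and 0.0533 CPM. These 6 transcripts did not pass the test between the conditioned media, with an edgeR adjusted p for SEN CM against PRO CM between 0.314 and 0.962.

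Of the transcripts that changed against fresh medium and, in the same direction, against PRO CM, the largest rise was again Timp1.2. comp12775_c0_seq2 has no name at hand. It was measured at 10.6, 11.5 and 10.7 CPM in fresh medium, 64.4, 69.1 and 81.4 CPM in PRO CM, 154, 176 and 166 CPM in SEN CM and 216, 225 and 216 CPM in 10% serum, so that the conditioned media lay between fresh medium and serum. comp129431_c0_seq1, also unnamed, followed the same order of means, with 29.6 ± 2.12, 66.0 ± 4.50, 158 ± 22.3 and 357 ± 14.9 CPM (SD, n = 3). Its log2 difference from PRO CM was 1.26 ± 0.28 (edgeR adjusted p = 0.00821). The other rises were comp1668617_c0_seq1 (2.48 ± 0.47 against fresh medium) and comp41508_c0_seq1 (2.33 ± 0.27). The largest fall was comp215328_c1_seq2, at 14.5, 10.3 and 14.3 CPM in fresh medium, 2.91, 2.90 and 2.18 CPM in PRO CM and 0.927, 1.46 and 1.12 CPM in SEN CM, and 10% serum lay at 1.72, 1.63 and 1.84 CPM. The groups were in the same order in comp2236518_c0_seq1, with 11.2 ± 2.66, 4.36 ± 1.17 and 1.74 ± 0.412 CPM. The remaining falls were comp358142_c0_seq1 (-2.87 ± 0.46), comp1892107_c0_seq1 (-2.64 ± 0.60) and comp142114_c0_seq1 (-2.34 ± 0.37).

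Against 10% serum, the established stimulus for these myotubes, 19.1% of transcripts were higher and 23.7% lower in SEN CM (4423 and 5474, against 1605 and 8897 in limma on log2(TPM + 1)). The 2 groups lie in different sets of job numbers. The mononucleate markers summed to 11655, 8998 and 12226 CPM in serum, above every SEN CM library, and their part was not tested. Cdk1a lay at 97.2, 86.9 and 79.7 CPM and Ccnb1 at 58.1, 51.1 and 50.3 CPM in serum, above every SEN CM library, with log2 differences of -1.5 ± 0.29 and -1.05 ± 0.24 (edgeR adjusted p = 0.000378 and 0.0013). Of the sarcomere list 8 members were lower and 1 higher in SEN CM than in serum, and of the muscle identity panel 6 were lower and 2 higher. Timp1.2 was higher in SEN CM than in serum by 5.55 ± 0.26 (edgeR adjusted p = 1.76e-11).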

How the data were processed

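RNA-seq libraries of A1 myotubes were quantified by the authors with Sailfish against a de novo N. viridescens transcriptome after trimming with Trim Galore on a Galaxy server. Versions of these tools were not given in the sources used here. Each deposited table holds the length, TPM and estimated counts of 27395 entries for 1 library, and the estimated counts, which the authors did not round, were rounded to whole numbers. A deposited TPM is scaled to a fixed total per library, so that it holds no depth. The 3 libraries of each of 6 groups entered 1 edgeR fit (version 4.0.16, limma 3.58.1, R 4.3.3) that scaled by TMM, filtered with filterByExpr on the groups, gave each group 1 mean and used the quasi-likelihood F test with Benjamini-Hochberg adjustment over 23107 transcripts at 0.05. The SE is the absolute log2 fold change divided by the square root of F. Depth of the 6 libraries was 35247127 to 52015212 counts, intervals are exact 95% intervals for counting error only, and 3 counts set the floor for a ratio. Alternatives were RLE scaling, DESeq2 1.42.0, no filter, the 2 groups only, a replicate block, each library left out, limma on log2(TPM) with 0.1 or 1 added, and quantile normalization, added after seeing the data. The deviations of same-numbered SEN CM and fresh medium libraries from their group means correlated at 0.563, 0.130 and 0.477, which does not settle whether they were paired. The main fit took no account of the replicate number, and the block is an alternative. No 2 libraries were identical. Gene names came from tables that accompany the study, by entry ID or, for the panels, which give no ID, by the normalized counts of all 18 libraries within 0.001 on the natural log scale, and cover only part of the entries.

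The transcripts named are Myf5, Myog, Ckma, the FGF receptors, Mcm7, Cdk1a and Ccnb1, the called members of each list (at most 8, those with the largest fold changes, or the 2 most abundant where none was called), and the 10 largest named rises and falls, the 3 largest regardless of name and the 5 largest in each direction that also passed the test against PRO CM. Some transcripts that the rule takes are not reported here. Other list members given with values were chosen after their values were seen. The members and lists were chosen with earlier results of these data known. The tests were run on simulated data in which few transcripts changed, as many up as down, and fold changes did not depend on level. That check does not cover the wide, level-dependent differences seen here. Reads of near-identical transcripts may be divided between entries.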

Additional observations from a re-analysis of the deposited data

Results flagged for a closer look

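The effects of SEN CM and of PRO CM, both against the same 3 fresh medium libraries, differed for 9 of the named transcripts. These passed the test between the conditioned media and had values of opposite sign against fresh medium. The share of all transcripts that meet both conditions was not counted. Cell cycle transcripts and the BMP antagonist Nog2 were higher in SEN CM than in PRO CM. For Cdk1a the log2 fold change against fresh medium was 1.5 in SEN CM and -0.84 in PRO CM, a difference of 2.33 ± 0.31 (edgeR adjusted p = 0.000236). For Ccnb1 the log2 fold change against fresh medium was 0.94 in SEN CM and -0.94 in PRO CM, a difference of 1.88 ± 0.25 (edgeR adjusted p = 0.00023). For Ccnb2 the log2 fold change against fresh medium was 1.62 in SEN CM and -0.61 in PRO CM, a difference of 2.23 ± 0.33 (edgeR adjusted p = 0.000704). In PRO CM the values of Cdk1a, Ccnb1, Ska1 and the heat shock protein 90 fragment passed the test against fresh medium. The others did not, so that their sign in PRO CM is uncertain. Their edgeR adjusted p was 0.0694 for Nog2, 0.187 for Ccnb2, 0.456 for Myo7a, 0.701 for Fgfr3.2 and 0.773 for ADAMTS-15a. The SEN CM calls of Ska1, Myo7a, the fragment and ADAMTS-15a were lost in some fits that left out 1 library, as given above. For Ska1 the log2 fold change against fresh medium was 0.67 in SEN CM and -0.97 in PRO CM, a difference of 1.64 ± 0.25 (edgeR adjusted p = 0.000793). For Nog2 the log2 fold change against fresh medium was 1.22 in SEN CM and -0.92 in PRO CM, a difference of 2.14 ± 0.35 (edgeR adjusted p = 0.00125). The remaining transcripts were lower in SEN CM than in PRO CM. For Fgfr3.2 the log2 fold change against fresh medium was -2.48 in SEN CM and 0.25 in PRO CM, a difference of -2.73 ± 0.54 (edgeR adjusted p = 0.00441). For Myo7a the log2 fold change against fresh medium was -1.41 in SEN CM and 0.46 in PRO CM, a difference of -1.86 ± 0.47 (edgeR adjusted p = 0.0185). For the heat shock protein 90 fragment the log2 fold change against fresh medium was -1.29 in SEN CM and 1.04 in PRO CM, a difference of -2.33 ± 0.41 (edgeR adjusted p = 0.00198). For ADAMTS-15a the log2 fold change against fresh medium was -0.86 in SEN CM and 0.12 in PRO CM, a difference of -0.98 ± 0.27 (edgeR adjusted p = 0.0272). The mononucleate marker sums, higher in SEN CM than in PRO CM in every library, moved with the first set, and their part was not tested.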

How the results depend on the processing

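The number of transcripts called in SEN CM against fresh medium was 8720. It was 8708 with RLE scaling, 9071 in DESeq2, 8446 without the filter on low counts, 9929 in a fit of only the 2 groups and 7979 after quantile normalization, which was chosen after seeing the data. In limma on log2(TPM + 0.1) and log2(TPM + 1) it was 14436 and 14697, with 933 higher and 13503 lower and 965 higher and 13732 lower. These alternatives differ from edgeR with TMM in scaling and in model, and the cause was not tested. Leaving out each library in turn gave 4678 to 8788 calls, and for SEN CM against PRO CM 619 to 1818 and against 10% serum 7504 to 9244. Between the conditioned media the calls split into 102 higher and 1741 lower on log2(TPM + 0.1) and into 523 higher and 533 lower without PRO CM library 2, and against serum into 1609 higher and 9115 lower on log2(TPM + 0.1). With the replicate number as a block, the main comparison gave 8492 calls (4216 higher and 4276 lower), SEN CM against PRO CM 1697 and against serum 9772. The block changed no call of a named transcript other than Il6 and laminin subunit gamma-2. Same-numbered libraries correlated at 0.312, 0.115 and -0.375 between the conditioned media and at 0.225, 0.0895 and 0.363 between SEN CM and serum, which does not settle a pairing either. Of 126 named transcripts all kept direction and call with RLE scaling, without the filter and in the 2-group fit, and 125 did in DESeq2. 83 of the 118 called ones were called in every fit that left out 1 library. Directions turned under limma on log2(TPM + 0.1) and log2(TPM + 1), in that order, for Myf5 (comp460329_c0_seq1) at -0.77 and -0.77, Mcm7 (comp18947_c0_seq1) at -0.71 and -0.67, Ccnb1 (comp125600_c0_seq1) at -0.14 and -0.14, Fgfr3.1 (comp9242_c2_seq19) at -0.52 and -0.48, Rfc3 (comp55389_c0_seq1) at -0.11 and -0.096, Ska1 (comp133756_c0_seq2) at -0.15 and -0.14, Il18 (comp47215_c0_seq1) at -0.089 and -0.078, Mapk8ipl (comp31823_c1_seq2) at -0.81 and -0.60, Jund (comp7301_c1_seq1) at -0.41 and -0.39, Troponin C, slow skeletal and cardiac muscles (comp186648_c0_seq1) at -0.041 and -0.040, Musk (Fragment) (comp14372_c0_seq4) at -0.37 and -0.31, AMP-activated alpha 2 subunit (comp1283917_c0_seq1) at -0.024 and -0.023, Phosphoglycerate kinase (comp81454_c0_seq1) at -0.095 and -0.083 and Heat shock 27kDa protein 1 (Fragment) (comp3932558_c0_seq1) at -0.015, the last on log2(TPM + 1) only. After quantile normalization they turned for Myf5 (comp460329_c0_seq1) at -0.51, Mcm7 (comp18947_c0_seq1) at -0.19, Fgfr1 (rcomp31873_c0_seq1) at 0.21. On leaving out 1 library the log2 fold change ran for Myf5 from -0.086 to 0.12, Myog from -0.20 to 0.19, Mcm7 from -0.15 to 0.41 and Fgfr1 from -0.41 to 0.42, and no other named transcript changed direction. The summed mononucleate markers were 1.67-fold higher in SEN CM with markers at least 50-fold higher in proliferating cells, against 1.42-fold, and with at least 50 CPM the ratio was equal to 2 decimals. With 3 libraries a group, 2 sets of job numbers and a transcriptome whose direction goes with transcript level, small fold changes rest on the scaling, and transcripts under 1 CPM rest on few counts.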
